A study of Mus musculus with 2 samples.

Results

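The genes described here carry out peptide presentation on MHC class I molecules: 5 heavy chain genes (H2-K1, H2-D1, H2-Q4, H2-Q7 and H2-T23), the light chain gene B2m, the peptide loading genes Tap1, Tap2 and Tapbp, and Nlrc5, the transcriptional activator of the class I genes. They were chosen by name. All 10 were found among the 45318 genes of the count table, and all 10 were among the 11504 genes whose mean over both libraries reached 1 CPM (the usual depth-scaled count, here with TMM scaling). The study compared MLL/AF9 leukaemia cells of strain C57Bl/6 mice that had received vehicle with cells from mice that had received brequinar, an inhibitor of the pyrimidine synthesis enzyme dihydroorotate dehydrogenase. In both groups GFP-positive leukaemia cells were sorted from bone marrow, and MLL/AF9 and GFP were common to both. Poly(A) RNA of 1 library per group was sequenced, 2 libraries in all, with gene counts that summed to 47935476 (vehicle) and 47950714 (brequinar). The sources used here do not give the dose, the duration, the age of the mice or how many mice a library came from. With 1 library per group no difference below has a replicate check or a p-value, and every interval covers counting error only.

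Class I molecules display peptides of cytosolic proteins at the surface of nucleated cells, where CD8 T cells and natural killer cells read them. Proteasomes cut the proteins, the Tap1 and Tap2 heterodimer pumps the peptides into the endoplasmic reticulum, and tapasin, the product of Tapbp, holds an empty heavy chain and B2m dimer beside the pump until a peptide binds. H2-K1 and H2-D1 encode the classical, highly polymorphic heavy chains. H2-Q4, H2-Q7 (the Qa-2 antigen) and H2-T23 (Qa-1, which shows leader peptides of other heavy chains to natural killer cells) are nonclassical. Interferons are well known to raise transcription of the whole pathway, through kappa B and interferon response elements and through the conserved X and Y boxes on which Nlrc5 acts with the RFX, CREB/ATF and NF-Y factors.

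Promoters are shown so that the letters of these elements, and where they differ in order, can be read. RefSeq promoter entries (GRCm38.p6) were matched for 8 of the 10 genes. Tap2 and Nlrc5 were not matched. For 4 of the matched genes the 225 bases before the RefSeq start follow, 5′ to 3′ on the strand of the gene. They lie at chr17:34000348-34000572 (minus strand) for H2-K1, chr17:35379392-35379616 (plus) for H2-Q4, chr17:35438930-35439154 (plus) for H2-Q7 and chr2:122147462-122147686 (plus) for B2m. Capitals mark the letters GGGATTCCC (a kappa B core), GAANNGAAA or GAAANNGAA (interferon response cores), TGACG (the X2 box core) and CCAAT (the Y box core), each on either strand, so that ATTGG is a Y box read from the other strand.
H2-K1: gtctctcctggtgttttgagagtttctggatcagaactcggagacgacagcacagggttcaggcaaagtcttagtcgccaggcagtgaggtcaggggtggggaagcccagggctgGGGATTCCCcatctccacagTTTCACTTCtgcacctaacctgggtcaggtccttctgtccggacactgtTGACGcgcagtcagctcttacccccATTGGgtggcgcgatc
H2-Q4: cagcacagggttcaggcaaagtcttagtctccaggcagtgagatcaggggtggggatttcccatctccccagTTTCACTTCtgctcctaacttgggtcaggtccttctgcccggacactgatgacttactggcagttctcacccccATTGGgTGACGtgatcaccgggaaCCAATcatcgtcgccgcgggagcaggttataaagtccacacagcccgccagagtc
H2-Q7: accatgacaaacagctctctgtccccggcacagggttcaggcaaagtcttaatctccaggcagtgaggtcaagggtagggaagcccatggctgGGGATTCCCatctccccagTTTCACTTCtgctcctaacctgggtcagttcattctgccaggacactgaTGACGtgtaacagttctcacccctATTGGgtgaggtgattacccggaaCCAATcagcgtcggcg
B2m: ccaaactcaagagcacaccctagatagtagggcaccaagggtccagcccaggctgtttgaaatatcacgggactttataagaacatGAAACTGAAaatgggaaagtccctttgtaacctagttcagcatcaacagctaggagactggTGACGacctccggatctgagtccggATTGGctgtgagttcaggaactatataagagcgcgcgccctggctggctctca

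In the 250 bases before the start, CCAAT occurred in 8 of 8 matched promoters, against 33.8% of all 32851 promoter windows, and TGACG in 6 of 8, against 17.8%. GGGATTCCC occurred in 3 (H2-K1, H2-D1 and H2-Q7), against 0.301%. H2-Q4 did not carry these exact letters, and its printed sequence has gggatttccc shortly before TTTCACTTC. By exact letters, holding both TGACG and CCAAT does not mean the same layout. In H2-Q4 the TGACG (73 bases before the start) lies after ATTGG (79 bases before). The printed H2-Q4 sequence also has tgact, which differs from TGACG in its last letter, beginning 25 bases before that ATTGG. Near matches of this kind were not searched for. In Tap1 the TGACG (86 bases before) lies after CCAAT (222 bases before). The interferon consensus core GAANNGAAA, added after the sequences were seen, occurred in 4 (H2-K1, H2-D1, H2-Q4 and H2-Q7), against 6.31%, and GAAANNGAA in 2 (B2m and H2-T23), against 7.13%. The letters of the gamma-activated site, TTCNNNGAA, occurred in none of the 8, against 7.02%. In H2-K1, H2-D1 and B2m the TGACG began 25 bases before ATTGG, and in H2-Q7 it began 24 bases before. A pair with this spacing of 24 or 25 bases, a rule also set after the sequences were seen, occurred in 0.128% of all windows. Tapbp carried CCAAT alone. The 4 stretches from TGACG to ATTGG are shown side by side because they set H2-D1 beside the others. The H2-D1 stretch lies before the RefSeq start but within an exon that GENCODE annotates as 5′ UTR. They lie at chr17:34000359-34000388 (minus) for H2-K1, chr17:35262993-35263022 (plus) for H2-D1, chr17:35439091-35439119 (plus) for H2-Q7 and chr2:122147609-122147638 (plus) for B2m.
H2-K1: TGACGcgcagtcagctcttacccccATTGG
H2-D1: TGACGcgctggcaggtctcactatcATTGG
H2-Q7: TGACGtgtaacagttctcacccctATTGG
B2m: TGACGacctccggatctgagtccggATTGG

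These matches describe letters in a window that depends on the annotated start, not sites shown to be bound. The printed heavy chain windows share long runs of letters, so their matches are not independent of each other.

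**Figure D1:**
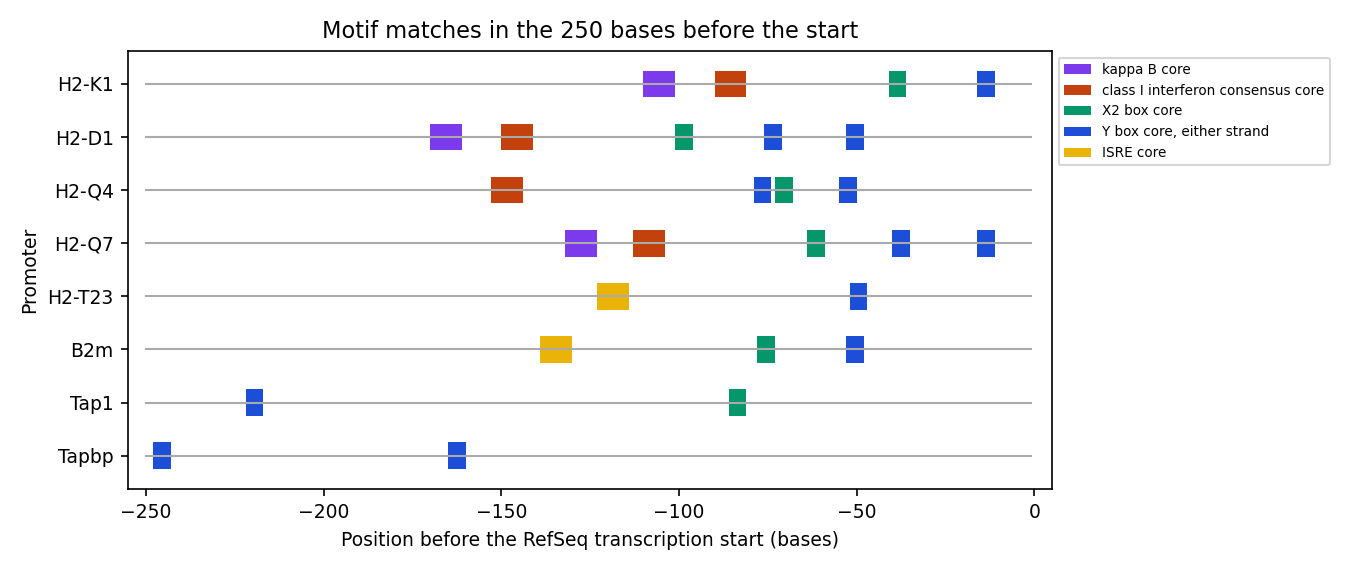
Positions of motif matches in the 250 bases before the RefSeq start of the 8 matched promoters (x axis, bases before the start; 1 line per gene). H2-K1, H2-D1 and H2-Q7 carry the same order of kappa B, interferon consensus, X2 and Y box letters, while H2-T23 and Tapbp carry no X2 letters.

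Of the 10 genes, 2 passed 2-fold upwards in the brequinar library and none was at least 2-fold lower. Over all 11504 measured genes 6.45% were higher and 4.40% lower by this rule, which uses the log2 ratio of brequinar over vehicle with a prior count of 2. The 2 genes were H2-Q7 and Nlrc5, the genes with the lowest levels per length of the 10. Log2 ratios were above 0 for 9 of 10 (8 of 10 with scaling by total counts, where H2-T23 changed sign), with a median of 0.68, where 5758 of all measured genes were above 0 and their median was 0.00029. By a 1.5-fold rule 6 of 10 were higher and none lower, where 12.7% of all measured genes lay on each side. With the whole counting interval required beyond 2-fold the count was again 2 (5.22% of all genes higher, 2.50% lower). Scaling by total counts also left 2 higher and none lower (5.75% and 5.49% of all genes). Where 5 CPM was required of the mean, H2-Q7 did not enter and 1 was higher and none lower (4.82% and 2.43%). The summed level of the 10 genes was 3331 CPM with vehicle and 5007 CPM with brequinar.

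By median log2 ratio, mature neutrophil markers moved between the same 2 libraries by more than the class I genes did. Single genes overlapped, with H2-Q7 (2.60) above Ltf (2.54), Mmp8 (2.12) and Retnlg (1.48). All 11 markers on that list passed 2-fold upwards (median log2 ratio 3.31), with a summed level of 1434 CPM with vehicle and 23751 CPM with brequinar. Erythroid markers (9 of 9 measured higher, summed 80.2 and 274 CPM) also stood higher. Of 8 measured tissue macrophage markers 6 were higher. Vcam1 and Adgre1, which were within 2-fold, summed to 591 and 721 CPM, and the other 8 listed markers to 5.74 and 51.9 CPM. None of these markers was listed at 0 in either library. All 10 genes listed as leukaemia cell markers were measured, with Itgam higher and Kit, Cd34 and Mpo lower. Among them were Ptprc, which encodes CD45 (286 and 538 CPM), and Hoxa9 (238 and 231 CPM). This list was not shown to set leukaemia cells apart from other leukocytes. T and natural killer cell markers summed to 2.83 and 4.03 CPM, and none of the 13 reached a mean of 1 CPM. Below that level single genes moved in opposite directions, with Cd4 at 9 and 74 counts and Lck at 61 and 18. The part of these other cells and of maturation in the class I values was not tested. In bulk RNA a different mix of cells and a different level per cell cannot be told apart.

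**Figure D2:**
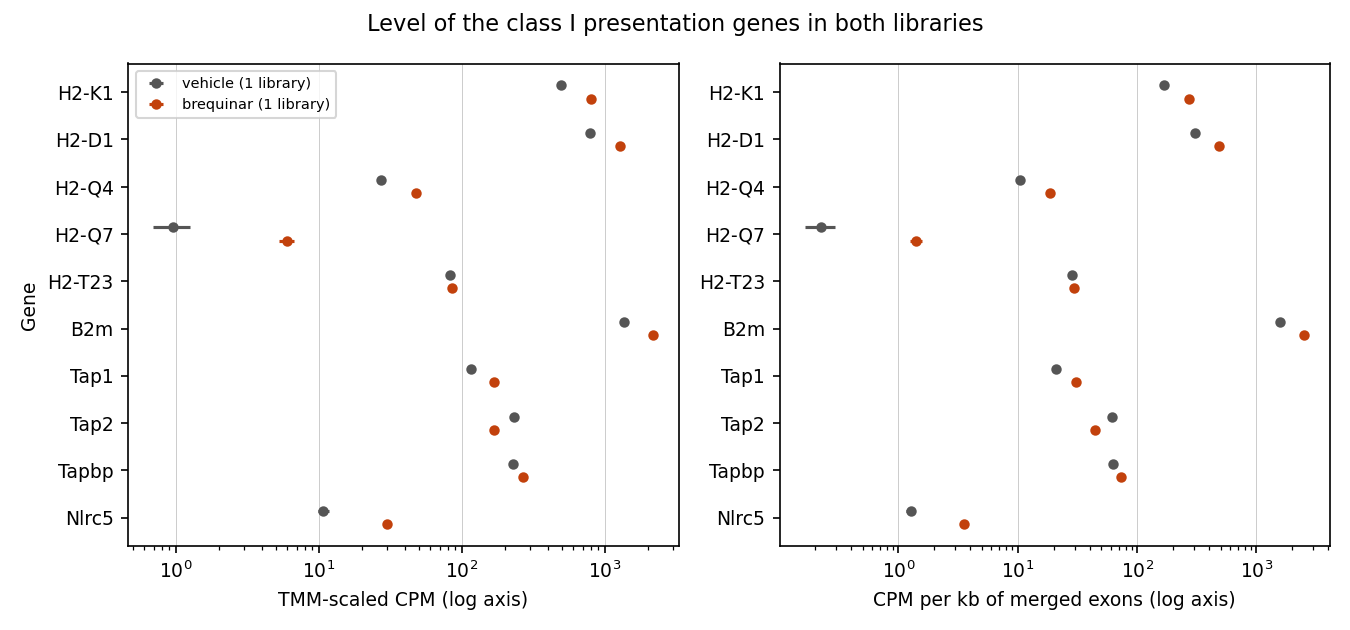
Level of each gene in the vehicle (grey) and brequinar (orange) library, as TMM-scaled CPM (left) and as CPM per kb of merged exons (right), on log axes; bars are exact 95% counting intervals, mostly smaller than the points. B2m, H2-D1 and H2-K1 are the 3 highest in both libraries, and Tap2 is the single gene whose brequinar point lies to the left of its vehicle point.

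Levels of different genes were compared per kb of merged exons (GENCODE release 21). In the vehicle library the order was B2m (1579 CPM per kb), H2-D1 (305), H2-K1 (167), Tapbp (62.8), Tap2 (61.2), H2-T23 (28.3), Tap1 (21.05), H2-Q4 (10.5), Nlrc5 (1.27) and H2-Q7 (0.223). Tapbp and Tap2 could not be separated there, with a ratio of 1.03 (interval 0.999 to 1.05). In the brequinar library the order was B2m (2524 CPM per kb), H2-D1 (489.9), H2-K1 (273), Tapbp (73.2), Tap2 (44.5), Tap1 (30.6), H2-T23 (29.7), H2-Q4 (18.5), Nlrc5 (3.51) and H2-Q7 (1.40). The intervals of Tap1 (29.9 to 31.3) and H2-T23 (28.8 to 30.6), which had changed places, overlapped. The order spans the whole range of expression: B2m stood at percentile 99.8 of all measured genes with vehicle and H2-Q7 at percentile 2.198.

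The classical heavy chain genes were among the most abundant mRNAs of both libraries. H2-D1 (ENSMUSG00000073411.8, chr17:35262730-35267499, plus strand) had 38902 counts with vehicle (786 CPM) and 58691 with brequinar (1263 CPM). Its level was 1.61-fold higher with brequinar (interval 1.59 to 1.63; log2 ratio 0.68). H2-K1 (ENSMUSG00000061232.12, chr17:33996017-34000347, minus strand) had 24335 counts (492 CPM) and 37234 counts (802 CPM). Its ratio was 1.63 (interval 1.60 to 1.66; log2 ratio 0.70). Both lay within 2-fold, and their counting intervals overlapped. H2-K1 and H2-D1 together made 92.4% of the summed level per kb of the 5 heavy chain genes with vehicle and 93.9% in the brequinar library.

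B2m encodes beta-2 microglobulin, the light chain that all class I heavy chains share. It lies apart from the MHC, on chromosome 2 (ENSMUSG00000060802.8, chr2:122147686-122153083, plus strand). Its counts were 67199 in the vehicle library (1358 CPM) and 100834 with brequinar (2171 CPM), a ratio of 1.60 (interval 1.58 to 1.61; log2 ratio 0.68). The balance of light to heavy chain mRNA was nearly the same in both libraries. B2m over H2-D1 was 5.18 per kb with vehicle and 5.15 in the brequinar library, and the change of that ratio was 0.995 (interval 0.979 to 1.01). B2m over H2-K1 was 9.43 and 9.25, with a change of 0.981 (interval 0.962 to 0.999). H2-K1 over H2-D1 was 0.549 and 0.557, with a change of 1.01 (interval 0.993 to 1.04). These 3 genes on 2 chromosomes had ratios between 1.60 and 1.63. H2-Q7 had another ratio, given next. A link between promoter letters and these ratios was not tested.

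The nonclassical heavy chains did not move as one. H2-Q7 (ENSMUSG00000060550.12, chr17:35439155-35443773, plus strand) had 47 counts with vehicle (0.9498 CPM) and 278 with brequinar (5.98 CPM). Its ratio was the highest of the 10, at 6.30 (interval 4.61 to 8.78; log2 ratio 2.60), from the lowest level of the 10. H2-Q4 (ENSMUSG00000035929.11, chr17:35379617-35385290, plus strand) had 1351 counts (27.3 CPM) and 2235 counts (48.1 CPM). Its ratio of 1.76 (interval 1.65 to 1.89; log2 ratio 0.82) was within 2-fold and close to those of the classical chains. H2-T23 (ENSMUSG00000067212.8, chr17:36029773-36032855, minus strand) had 4052 counts (81.9 CPM) and 3981 counts (85.7 CPM), a ratio of 1.05 (interval 1.002 to 1.09; log2 ratio 0.07). Scaling by total counts gave H2-T23 a log2 ratio of -0.03, so its direction depended on the scaling. Its share of the 5 heavy chains per kb was 5.54% with vehicle and 3.65% in the brequinar library.

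Heavy chain genes resemble each other, which bears on these counts. Of all distinct 101-base stretches (the read length) in the annotated coding transcripts, 17.02% of those of H2-Q7 also occurred in another gene, mainly H2-Q6 (9.27%) and H2-Q5 (7.75%). The share was 13.8% for H2-Q4, 7.07% for H2-T23 and 4.04% for H2-D1. Most of the H2-Q4 share (11.0% of its stretches) was with the antisense gene Gm11131, which overlaps H2-Q4 by 676 bases. Matches on either strand were counted, so those stretches can be the same place in the genome and not a second copy. H2-Q6 shared 1.06% of the H2-Q4 stretches. No such stretch was shared for H2-K1, B2m or Nlrc5. Reads with several matches stayed out of the gene counts (7.39% and 6.92% of all reads were multimapping), so H2-Q7 can be undercounted by an unknown amount in both libraries. The listed heavy chain genes H2-Q8 and H2-Q9 were not found under these symbols. Whether H2-Q7 shares stretches with them, and for which gene their reads were counted, is unknown here. H2-Q6, its neighbour, stood at 1.86 and 4.67 CPM (2.51-fold higher, interval 1.96 to 3.24). H2-Q7 and H2-Q6 therefore both stood higher, and the split of reads between them is uncertain.

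The 3 peptide loading genes differed from each other. Tap1 (ENSMUSG00000037321.14, chr17:34187553-34197225, plus strand) had 5703 counts with vehicle (115 CPM) and 7785 with brequinar (168 CPM), 1.45-fold higher (interval 1.41 to 1.505; log2 ratio 0.54). Tap2 (ENSMUSG00000024339.9, chr17:34203527-34216321, plus strand) had 11447 counts (231 CPM) and 7820 counts (168 CPM), 1.37-fold lower (interval 1.34 to 1.41; log2 ratio -0.46). Tap2 was the single gene of the 10 that was lower. Tapbp (ENSMUSG00000024308.11, chr17:33915899-33929292, plus strand) had 11268 counts (228 CPM) and 12337 counts (266 CPM), a ratio of 1.17 (interval 1.14 to 1.20; log2 ratio 0.22). All 3 lay within 2-fold. Tap1 shares 3.67% of its 101-base stretches with Psmb9. Tap2 shares 4.96%, with Gm15821 (3.82%) and Gm20496 (1.13%), both on the opposite strand. Gm15821 stood at 0.202 and 0.0861 CPM and Gm20496 at 0.283 and 0.151 CPM. Tapbp shares 12.5% with the antisense gene Gm19412, which stood at 0.485 and 0.172 CPM. Tapbp also overlaps Zbtb22 on the same strand by 3422 bases (Zbtb22 at 50.9 and 44.8 CPM).

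The 2 partners of the peptide pump thus stood in a different proportion. Tap1 over Tap2 was 0.344 per kb in the vehicle library (interval 0.333 to 0.355) and 0.687 with brequinar (interval 0.666 to 0.709). The ratio changed 2.00-fold (interval 1.91 to 2.09), a value that neither gene length nor library scaling enters. Tapbp over Tap2 went from 1.03 to 1.64 per kb, and Tapbp over Tap1 from 2.98 to 2.39.

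**Figure D3:**
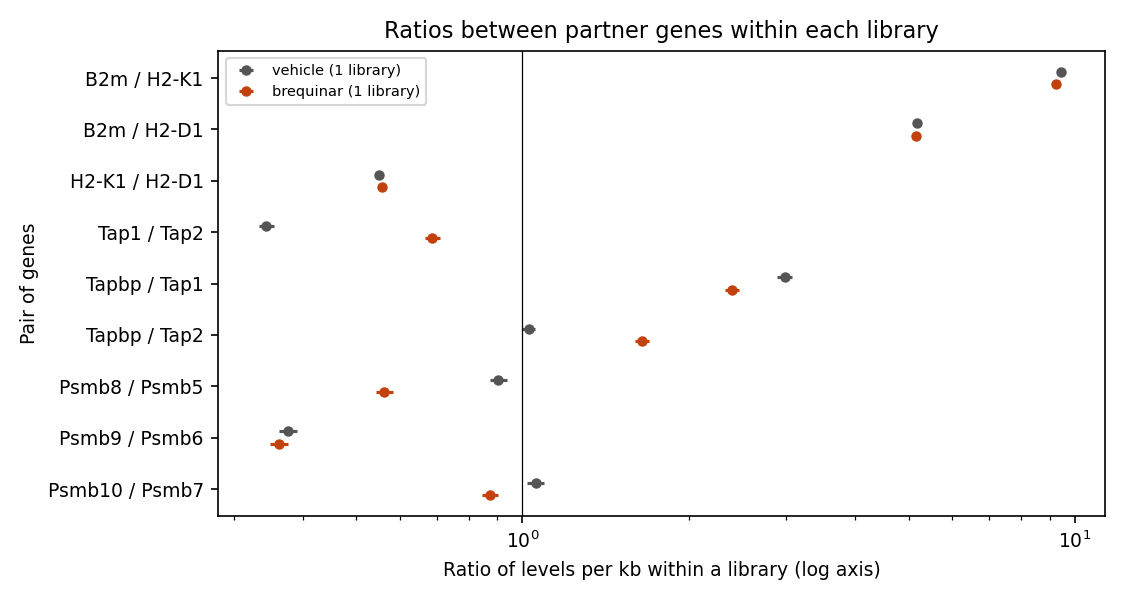
Ratio of levels per kb between partner genes within the vehicle (grey) and the brequinar (orange) library, on a log axis, with exact 95% counting intervals. The points of both libraries lie close together for B2m over H2-K1, B2m over H2-D1 and H2-K1 over H2-D1, while Tap1 over Tap2 moves from 0.344 to 0.687 and Psmb8 over Psmb5 from 0.904 to 0.563.

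Nlrc5, which drives class I genes from the Y and X box module, was 2.77-fold higher with brequinar (interval 2.50 to 3.07; log2 ratio 1.47). It lies on chromosome 8 (ENSMUSG00000074151.9, chr8:94434356-94527272, plus strand) and had 533 counts with vehicle (10.8 CPM) and 1386 with brequinar (29.8 CPM). The interval lay wholly beyond 2-fold, as did that of H2-Q7. Ciita, the related activator of class II genes, had 4 and 15 counts (0.0808 and 0.323 CPM) and did not reach the mean of 1 CPM.

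The factors that act on class I promoters were measured for 16 of 17 genes. At least 2-fold higher were 2 (12.5%, against 6.45% of all measured genes), and none was lower (median log2 ratio 0.43). The 2 were Relb, an NF-kappa B subunit (1.58 and 4.09 CPM; log2 ratio 1.35), and Irf1, an interferon-induced activator (52.9 and 108 CPM; log2 ratio 1.02). With scaling by total counts the log2 ratio of Irf1 was 0.93 and Relb alone remained beyond 2-fold. That share, 6.25%, was near the 5.75% of all genes higher with that scaling. Creb1 stood at 117 and 218 CPM and Nfkb2 at 16.2 and 28.7 CPM, both within 2-fold. Rfx5, the DNA-binding subunit of the RFX complex on the X box, stood at 28.2 and 22.9 CPM (1.23-fold lower, interval 1.14 to 1.34). Nlrc5 and Rfx5 thus had log2 ratios of opposite sign. The other RFX subunits, Rfxap (0.27) and Rfxank (0.11), had log2 ratios above 0, as did 14 of the 16 measured factors, with 2 below.

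Of 22 other class I and class I-like heavy chains listed, 20 were found and 10 measured. Of these 10, 3 were higher (30%, against 6.45% of all measured genes) and none lower, with a median log2 ratio of 0.72. H2-Q6 (1.31), Azgp1 (1.09; 0.970 and 2.11 CPM) and H2-T10 (1.05; 5.03 and 10.5 CPM) passed 2-fold. Azgp1 encodes a secreted class I-like protein. Of these 3, H2-Q6 alone remained beyond 2-fold with scaling by total counts. H2-T22, a ligand of some gamma delta T cell receptors, stood at 32.9 and 61.0 CPM (log2 ratio 0.89). H2-M3, which presents formylated bacterial and mitochondrial peptides, stood at 7.72 and 10.03 CPM (log2 ratio 0.38). Cd1d1, which presents lipids, stood at 24.5 and 14.9 CPM (1.65-fold lower, interval 1.498 to 1.81). Among NKG2D ligands 1 was measured, Ulbp1, at 25.1 and 35.2 CPM.

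The steps around peptide loading showed no gene past 2-fold. Of 12 general chaperones and loading partners in the endoplasmic reticulum, 11 had log2 ratios below 0 (median -0.33). The gene of calreticulin, a lectin chaperone, lay furthest below 0 (Calr, 2300.4 and 1213 CPM). It was 1.90-fold lower (interval 1.88 to 1.92). With scaling by total counts 1 gene of this list was at least 2-fold lower. Ganab, the glucosidase that trims the sugar calreticulin reads, stood at 424 and 315 CPM, Sec61b at 195 and 145 CPM and Tapbpl, the second peptide editor beside tapasin, at 57.5 and 43.8 CPM. Pdia3, the disulphide isomerase of the loading complex, stood at 728 and 623 CPM. Erap1, which trims peptides to length, stood at 171 and 169.7 CPM (ratio 0.993, interval 0.963 to 1.02).

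The immunoproteasome, which makes peptides with ends suited to class I, likewise had no member of 7 past 2-fold (median log2 ratio 0.10, and 0.0048 with total counts). Psmb8, one of its 3 catalytic subunits, stood at 280 and 213 CPM (1.32-fold lower, interval 1.28 to 1.35). Psmb9, which starts head to head with Tap1 across a shared promoter, stood at 92.4 and 99.3 CPM, and Psmb10 at 103 and 105 CPM. Psme2 stood at 178 and 196 CPM, Psme1 at 171 and 166 CPM and the assembly factor Pomp at 167 and 185 CPM. The standard counterparts Psmb5, Psmb6 and Psmb7 had log2 ratios of 0.29, 0.16 and 0.30. Psmb8 over its counterpart Psmb5 was 0.904 per kb with vehicle and 0.563 in the brequinar library, a change of 0.622 (interval 0.592 to 0.654). Psmb9 over Psmb6 was 0.376 and 0.363, with an interval of the change (0.914 to 1.02) that includes 1. Tap1 was thus 1.45-fold higher where Psmb9, read from the opposite side of the same promoter, had a ratio of 1.07 (interval 1.03 to 1.12). Among 8 cytosolic peptidases none passed 2-fold, with Thop1, which destroys many class I peptides, at 51.7 and 31.2 CPM, Npepps at 131 and 176 CPM, Blmh at 124 and 95.2 CPM and Nrd1 at 238 and 285 CPM.

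**Figure D4:**
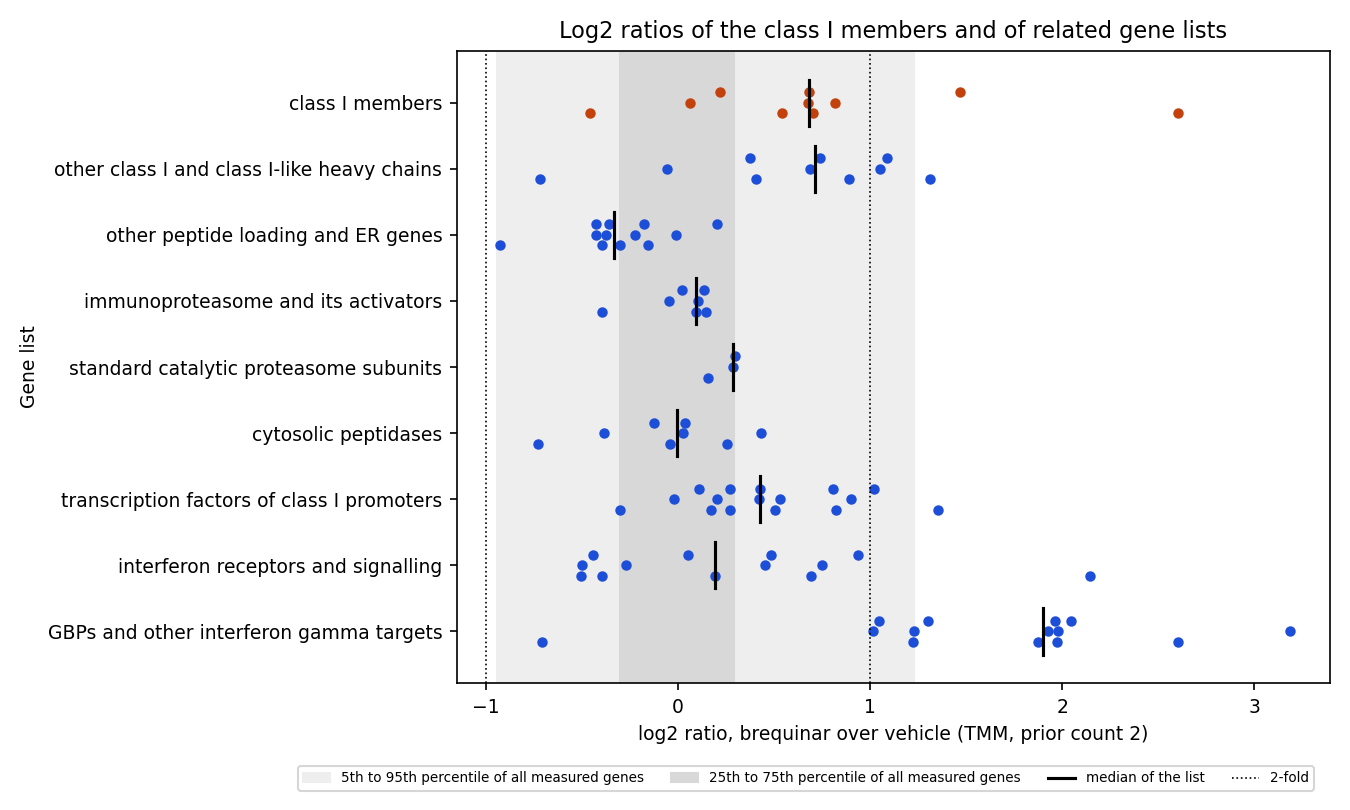
Log2 ratio of brequinar over vehicle (x axis) for each measured gene of the class I members (orange) and of related lists (blue), with the median of each list as a bar, 2-fold as dotted lines and grey bands for all 11504 measured genes. The class I members have a median of 0.68, the endoplasmic reticulum list -0.33, the immunoproteasome list 0.10 and the interferon gamma target list 1.90.

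Other genes known as targets of interferon gamma had a higher median log2 ratio than the class I genes. Single genes overlapped, with Cd274 (1.01), Irgm1 (1.05), Gbp7 (1.22), Gbp5 (1.23) and Cxcl10 (1.30) below Nlrc5 (1.47) and H2-Q7 (2.60). Of 14 measured guanylate binding proteins, immunity-related GTPases and other targets, 13 were at least 2-fold higher and none lower (median log2 ratio 1.90), and 11 were higher with scaling by total counts. Gbp4 stood at 0.344 and 3.47 CPM, Gbp9 at 0.889 and 5.62 CPM, Gbp2 at 21.2 and 87.9 CPM and the chemokine gene Cxcl9 at 1.13 and 4.59 CPM. Gbp3 was the exception, at 41.2 and 25.2 CPM. Of the receptors and signalling genes of interferons 1 of 13 was higher, the feedback inhibitor Socs3 (0.566 and 2.65 CPM). That share, 7.69%, was near the 6.45% of all measured genes. Irf7 stood at 10.2 and 19.6 CPM, Irf9 at 36.2 and 60.99 CPM and Socs1 at 1.60 and 2.60 CPM. Ifngr1, a receptor chain for interferon gamma, stood at 404 and 286 CPM (1.41-fold lower, interval 1.38 to 1.44). None of 9 interferon genes was measured: 9 were at 0 counts with vehicle and 8 in the brequinar library, which allows up to 0.0606 and 0.0646 CPM each (3 counts). Ifng had 2 counts in the brequinar library.

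In the MHC of chromosome 17 the class I heavy chains can be set beside their neighbours. From the lowest coordinate of H2-K1 to the end of the last listed class I gene (chr17:33996017-37483552), 100 genes were measured. All 10 class I heavy chains among them had log2 ratios above 0 (9 with scaling by total counts, where H2-T23 was at -0.03), with 3 at least 2-fold higher (H2-Q6, H2-Q7 and H2-T10) and a median of 0.78. The other 90 genes had a median of -0.04, with 13 (14.4%) higher and 5 (5.56%) lower. These included Ly6g5b, at 1.11 and 25.6 CPM, and H2-Q5, at 1.47 and 4.11 CPM. H2-Q5 and H2-T10 are both annotated as polymorphic pseudogenes, and H2-T10 counts as class I here because it was on the gene list. With H2-Q5 added, 4 of 11 class I genes were higher (median 0.82), against 12 of the other 89 (median -0.04). Without H2-T10, 2 of 9 were higher (median 0.74). Class II genes lay on both sides, with H2-Aa at 3.07 and 7.56 CPM and H2-DMa at 93.9 and 43.4 CPM. H2-K2, which lies just outside this span, stood at 3.27 and 3.14 CPM. Tapbp also lies outside it, before H2-K1.

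**Figure D5:**
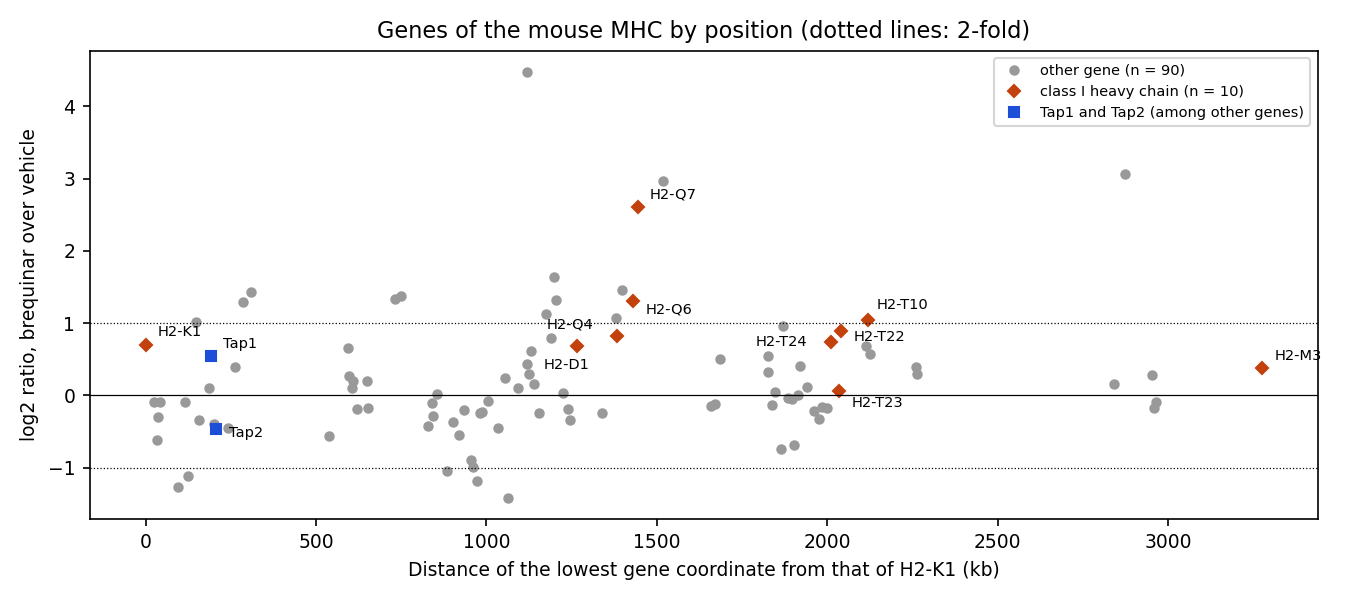
Log2 ratio of brequinar over vehicle (y axis) of the 100 measured genes of the mouse MHC by distance from H2-K1 in kb (x axis); class I heavy chains are orange diamonds, Tap1 and Tap2 blue squares and other genes grey. The 10 class I heavy chains lie above 0, with H2-T23 at 0.07 (-0.03 with scaling by total counts) and H2-Q7 at 2.60, while the 90 other genes scatter around 0.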

How the data were processed

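The submitters' processing notes name STAR 2.4.2a, Picard 1.99 and 2.2.4 and build mm10. The library kit keeps strand, per the labels. Which program counted reads, with which strand setting and annotation, is unknown here. Reads listed as ambiguous (1.23% with vehicle, 1.12% with brequinar) stayed out of the gene counts. Reads of overlapping genes may therefore be lost, or be counted for the wrong gene. The deposited values are whole-number read counts per gene, not normalised. Lines that name no gene (21.6% of reads with vehicle, 20.2% with brequinar) stayed out of library sizes. GENCODE mouse release 21 (GRCm38) gave coordinates, and symbols for 44585 of 45318 identifiers.

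TMM scaling (edgeR 4.0.16 in R 4.3.3; factors 1.03 and 0.969) turned counts into CPM, and log2 ratios used a prior count of 2. A mean of 1 CPM was required. With 1 library per group a rule of size (2-fold) replaced a test. Ratio intervals are exact (Clopper-Pearson, 95%), level intervals exact Poisson, and intervals of a changed ratio normal on the log scale. Without molecular identifiers reads are not independent molecules. The procedure was tested on simulated counts. DESeq2 1.42.0 gave alternative size factors. Promoter windows with over 30 bases of annotated UTR (H2-D1, H2-T23, Tap1, Tapbp) were searched but not printed whole, and of these H2-D1 is shown by a stretch of 30 bases.

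The members, lists, motifs and gene pairs were chosen with earlier results of these data known. All 10 members are named, with the up to 4 largest absolute log2 ratios of each related list and Psmb8, Psmb9, Psmb10, Psme1, Psme2, Calr, Pdia3, Erap1, Irf1, Rfx5, Ciita, Ifngr1, H2-M3 and H2-T22. The rule names 1 further gene which is not reported here. Marker lists of cell types are outside the rule. Other genes (Gbp3, Cd1d1, Ly6g5b, H2-Q5, H2-Aa, H2-DMa, H2-K2, Ptprc, Hoxa9 and the standard proteasome subunits among them) were named after their values were seen. B and plasma cell markers summed to 34.9 and 21.5 CPM, of which Cd79b made 26.2 and 9.86. Of 5 measured, 1 was higher and 1 lower. Dendritic cell markers summed to 8.00 and 4.39 CPM, of which Flt3 made 4.49 and 1.44 and Klk1 2.28 and 0.344. Of 3 measured, 1 was higher and 2 lower. Endothelial and stromal markers summed to 34.3 and 12.2 CPM, of which Pecam1 made 25.1 and 6.76 and Pdgfrb 6.93 and 2.50. These 2 were the only ones measured, and both were lower. The sums thus follow a few genes.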

Additional observations from a re-analysis of the deposited data

How the results depend on the processing

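Across other scalings (by DESeq2, by total, by upper quartile, or by the total after removing the 50 top genes), prior counts of 0.5 and 5 and no filter, the count of higher genes stayed at 2 and that of lower genes at 0. A mean of at least 5 CPM left 1 higher gene, Nlrc5, since H2-Q7 did not enter. There 4.82% of all genes were higher. The 1.5-fold rule gave 6 higher genes. With the whole interval required beyond 2-fold the count was 2 (5.22% of all genes). Scaling by total counts shifted log2 ratios by a median of -0.09, and among all genes 662 were higher and 632 lower (5.75% and 5.49%) in place of 742 and 506. Without a filter 2470 of 21287 genes were higher and 2074 lower (11.6% and 9.74%). Beyond 5 CPM 457 of 9483 genes were higher and 230 lower. Prior counts of 0.5 and 5 gave 6.49% and 6.37% of all genes higher, and 4.49% and 4.21% lower. By DESeq2, by upper quartile and without the 50 top genes, 6.40%, 6.21% and 5.82% were higher. The shares lower were 4.43%, 4.76% and 5.24%. The 1.5-fold rule gave 1456 and 1463, and the interval rule 600 and 288. Adding H2-Q5 to the class I genes of the MHC, or keeping protein-coding genes alone, both chosen after seeing the data, gave 4 and 2 higher in place of 3. The median of the 10 genes moved between 0.59 with total counts and 0.68. Levels per kb of the longest transcript kept the order of the 10 genes in both libraries, with Tapbp over Tap2 at 1.17 in place of 1.03 in the vehicle library. No paired analysis was possible because each group has 1 library. Leaving out a library was likewise not possible. H2-Q7, with 47 counts in the vehicle library, is the value most limited by depth.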
